A study of Homo sapiens with 4 samples.

Results

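The mitochondrial genome encodes 13 mRNAs, and 10 of them are described here: MT-ND1, MT-ND2, MT-ND3, MT-ND4, MT-ND5, MT-CYB, MT-CO1, MT-CO2, MT-CO3 and MT-ATP6. They were chosen by gene name, as RNAs that a nuclear m6A writer would not be thought to meet, and make up 10 of 13300 gene names and 10 of 34975 transcripts listed in the series. RNA immunoprecipitation sequencing (RIP-seq) was performed in HCCLM3, an established human hepatocellular carcinoma cell line. KIAA1429, also named VIRMA, is a scaffold protein of the m6A methyltransferase complex, and RNA precipitated with an antibody to it was compared with RNA precipitated with control IgG. Each group held 2 libraries, no treatment or genetic change is given for either group, and no input library was analysed here. Nothing in the labels says whether the replicates came from separate cultures, so p-values measure the spread between these libraries, which may be technical.

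Transcription of the mitochondrial genome takes place inside the organelle. Its long precursor RNAs are cut, mostly at tRNAs, into mRNAs, and most of these are then polyadenylated by a mitochondrial enzyme. The proteins they encode are core subunits of the respiratory chain and ATP synthase, and all remaining subunits are made from nuclear genes. The m6A writer complex acts on RNA in the nucleus and prefers a short motif with GGAC at its centre. Hepatocytes are rich in mitochondria, and polyadenylated mitochondrial mRNAs can be held by poly(A) selection. The mitochondrial content of the cells used was not examined here.

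All 10 members lie on the plus strand of chrM in GRCh37, which is 16569 bases long, each is listed as 1 transcript, and each is a gene without introns. The coordinates deposited for all 13 mitochondrial mRNAs were those of the annotation of that build. In the order of the genome, MT-ND1 lies at chrM:3307-4262, MT-ND2 at chrM:4470-5511, MT-CO1 at chrM:5904-7445, MT-CO2 at chrM:7586-8269 and MT-ATP6 at chrM:8527-9207. MT-CO3 follows at chrM:9207-9990, MT-ND3 at chrM:10059-10404, MT-ND4 at chrM:10760-12137, MT-ND5 at chrM:12337-14148 and MT-CYB at chrM:14747-15887. The genes end in different ways. In 4 members the last codon is complete, in 5 only its T is encoded and in MT-ND1 only TA, and the poly(A) tail added to the RNA completes the stop codon. The last 21 bases of 4 members whose balance differed most between the precipitates are shown, 5′ to 3′, with the encoded bases of the last codon in capitals.
MT-CO2, chrM:8249-8269: gggcccgtatttaccctaTAG
MT-ND3, chrM:10384-10404: aaggattagactgaaccgaaT
MT-ND5, chrM:14128-14148: accctactcctaatcacaTAA
MT-CO1, chrM:7425-7445: cccgtatacataaaatctAGA

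GGAC, read on the sense strand, occurred 17 times in the 10 members. MT-CYB held 4, MT-ND4 and MT-ND5 held 3 each, MT-CO2 and MT-ATP6 held 2 each, and MT-ND2, MT-CO1 and MT-CO3 held 1 each. MT-ND1 and MT-ND3 held none. The motif was thus present in 80% of members at a median of 1.47 per kb, against 97.4% and 3.77 per kb of 22660 other tested transcripts, and against 95.2% and 4.29 per kb of the 10877 of these that were 300 to 2000 bases long. A match of these letters is a description and not a methylated site. The occurrences in MT-CO2 and MT-ND5, the members at the 2 ends of the range of differences given further on, are shown with the motif in capitals.
MT-CO2, chrM:7920-7940: actacggcGGACtaatcttca
MT-CO2, chrM:8106-8126: caattcccGGACgtctaaacc
MT-ND5, chrM:13259-13279: gtcaactaGGACtcataatag
MT-ND5, chrM:13409-13429: aaataggaGGACtactcaaaa
MT-ND5, chrM:13817-13837: ctttcctaGGACttctaacag

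Values were deposited as FPKM, fragments scaled to the length of the transcript and to the sequencing depth, so levels are already per length. Comparisons of level between genes rest on that scaling, and how it was estimated is unknown. MT-ATP8 stood at 2.59 to 3.11 times the FPKM of MT-ATP6, although both lie on a common RNA. The number of reads behind a value is unknown, and no counting interval could be given. The FPKM of all listed transcripts summed to between 295573 and 340300 per library, and every listed transcript averaged 0.5001 FPKM or more in the group where it was higher. All 8 hepatocyte and hepatoma markers checked were listed, at 7.66 to 1048 FPKM, whereas the blood, fibroblast and endothelial markers PTPRC, COL1A1 and PECAM1 had no listed transcript. The top of that range came from the keratins KRT18, at 820 to 1048 FPKM, and KRT8, at 260 to 432 FPKM. The remaining markers lay between 7.66 FPKM in TTR and 128 FPKM in AFP. The mRNA of KIAA1429 itself, which an antibody to the protein need not enrich, stood at 18.0 and 10.01 FPKM with IgG and at 18.2 and 11.6 FPKM with the KIAA1429 antibody, summed over its transcripts. Because FPKM is relative to the rest of a library, more mitochondrial RNA and less of other RNA cannot be told apart.

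Mitochondrial mRNAs were among the most abundant RNAs of both precipitates. By mean FPKM the members ranked between 3 and 49 of 13300 gene totals, and their rank lay between 3 and 78 in any library. Together they made up 4.09% and 8.38% of the FPKM of the IgG RIP libraries, a mean of 6.24% ± 3.04 (SD, n = 2). The share in the KIAA1429 RIP libraries was 4.63% and 6.46%, a mean of 5.54% ± 1.298 (SD, n = 2). Both KIAA1429 RIP shares thus lay inside the span of the IgG RIP shares.

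**Figure D1:**
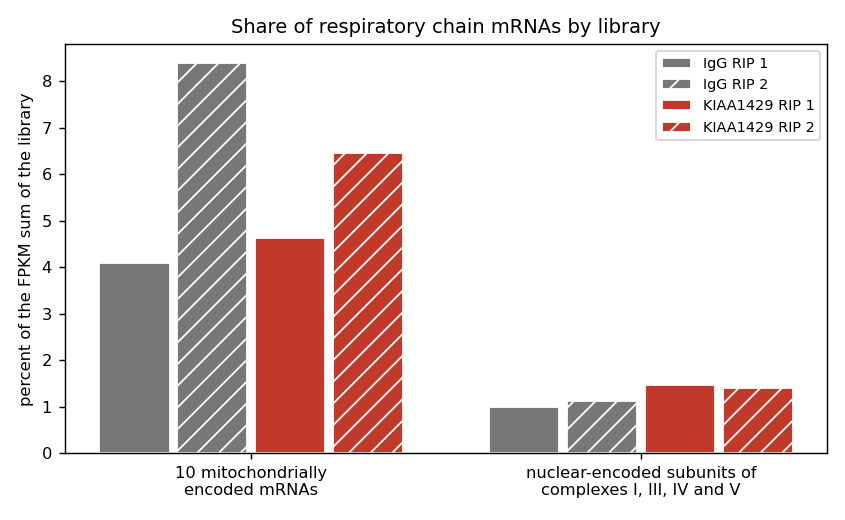
Summed FPKM of the 10 mitochondrially encoded mRNAs as a percent of all listed FPKM, for each of the 4 libraries. The KIAA1429 RIP libraries, at 4.63% and 6.46%, lie between the IgG RIP libraries, at 4.09% and 8.38%.

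The IgG libraries held the lowest and the highest amount. The members summed to 12086 and 26447 FPKM in IgG RIP replicates 1 and 2, a 2.19-fold gap, and to 15592 and 21991 FPKM in KIAA1429 RIP, a 1.41-fold gap. Every member was higher in replicate 2 than in replicate 1 in both groups, by 0.67 to 1.45 on the log2 scale in IgG RIP and by 0.28 to 0.63 in KIAA1429 RIP. Replicate 2 was above replicate 1 in 51.1% of 423 gene totals outside the mitochondrial genome with a mean of at least 100 FPKM, in either group, and in 41.4% and 46.3% of all gene totals tested, in IgG RIP and KIAA1429 RIP. In IgG RIP the gap reached 1.5-fold in 10 of 10 members, against 24.8% of the 310 other transcripts that averaged 100 FPKM or more. This limit lay just under the smallest gap of a member, 1.59-fold in MT-ND4, and the members share precursor RNAs. The log2 ratio of the mean sums, KIAA1429 RIP over IgG RIP, was -0.04. The SDs of the log2 sums in the 2 groups, combined as the root of their summed squares, came to 0.87. That value describes the spread of single libraries and is not a standard error of the ratio. Leaving out IgG replicate 2 gave 0.64 and leaving out IgG replicate 1 gave -0.49, so the direction rested on which IgG library was read.

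MT-CO1, the catalytic subunit of cytochrome c oxidase (complex IV), had the highest mean, 3855 FPKM. It stood at 2540.4 and 6533 FPKM with IgG and at 2496 and 3849.6 FPKM with the KIAA1429 antibody. MT-CO2, which takes up electrons from cytochrome c, stood at 1019.7 and 2177 FPKM with IgG and at 2148 and 3149 FPKM with the KIAA1429 antibody. MT-CO1 was highest in the second IgG library, while MT-CO2 was highest in the second KIAA1429 library, and its lowest KIAA1429 value was just under the higher IgG value. MT-CO3, the third mitochondrial subunit of the same enzyme, stood at 1973 and 4113 FPKM with IgG and at 2802 and 3563 FPKM with the KIAA1429 antibody, with both KIAA1429 values between the IgG values.

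Among the subunits of complex I, which oxidizes NADH and pumps protons, MT-ND4 was the most abundant member, at 1981 and 3149.8 FPKM with IgG and at 2232 and 2707 FPKM with the KIAA1429 antibody. MT-ND5, a proton-pumping subunit at the far end of the membrane arm, stood at 807 and 1785 FPKM with IgG and at 697 and 986 FPKM with the KIAA1429 antibody. MT-ND3, a small subunit near the junction of the arms, stood at 590.3 and 1613 FPKM with IgG and at 1279.5 and 1879.95 FPKM with the KIAA1429 antibody. The highest MT-ND5 value was an IgG value and the highest MT-ND3 value a KIAA1429 value, and both groups overlapped in each gene. MT-ND1, which helps form the quinone site, stood at 582 and 1084 FPKM with IgG and at 803 and 1239 FPKM with the KIAA1429 antibody. MT-ND2, another membrane subunit, stood at 822 and 1638 FPKM with IgG and at 1048 and 1626 FPKM with the KIAA1429 antibody. Both overlapped between groups, with replicate 2 above replicate 1.

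MT-CYB, the cytochrome b of complex III and its only mitochondrially encoded subunit, stood at 1384 and 3460.1 FPKM with IgG and at 1495 and 2099 FPKM with the KIAA1429 antibody. MT-ATP6, which forms part of the proton channel of ATP synthase (complex V), was the least abundant member, at 387 and 895 FPKM with IgG and at 593 and 893 FPKM with the KIAA1429 antibody. Both overlapped between the groups. By mean FPKM the order was MT-CO1, MT-CO3, MT-ND4, MT-CO2, MT-CYB, MT-ND3, MT-ND2, MT-ND5, MT-ND1 and MT-ATP6, a span of 5.57-fold. Of the 9 neighbouring pairs in this order, 2 kept it in 4 of 4 libraries, MT-CYB above MT-ND3 and MT-ND1 above MT-ATP6, and the remaining neighbours changed order in at least 1 library. MT-CO3 was above MT-ND4 by a mean of 0.28 on the log2 scale (SD 0.19, n = 4) and in 3 of 4 libraries.

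**Figure D2:**
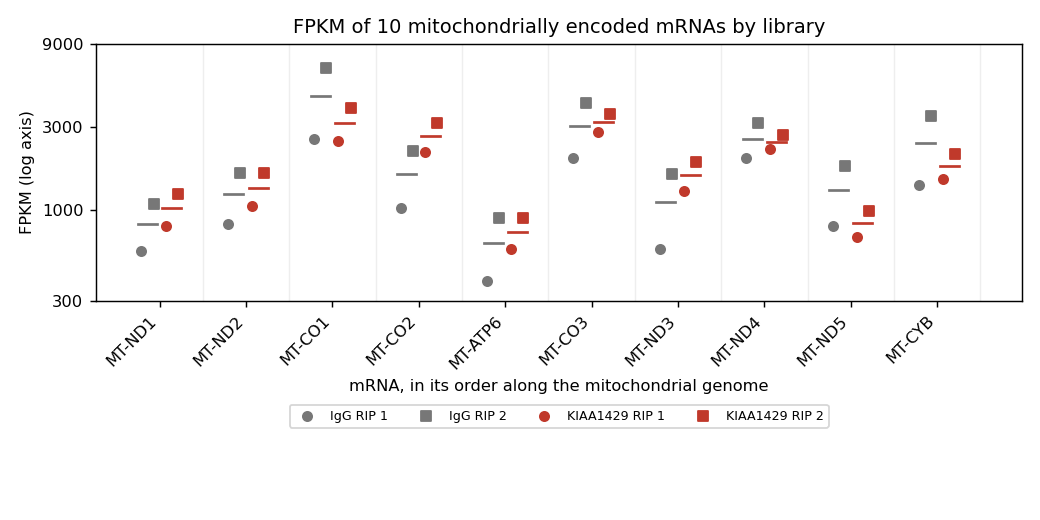
FPKM (log axis) of each of the 10 mRNAs in the 4 libraries, in their order along the mitochondrial genome, with a bar at each group mean. In every gene the groups overlap, and the square of replicate 2 lies above the circle of replicate 1.

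No member passed the test for a difference between the precipitates. The limma test on log2(FPKM + 1), run on the 23375 transcripts that averaged 1 FPKM or more over the libraries and called at a log2 fold change beyond 1 in size with an adjusted p under 0.05, called 0 of 10 members; the background was 0% higher and 0% lower. Since no transcript at all was called, the count of members called carries little information. All 10 passed that filter. At an unadjusted p under 0.05, 0 of 10 members passed, against 5.36% of all transcripts tested. The FPKM of the groups overlapped in all 10, so 0 of 10 were apart, against 29.7% of tested transcripts and 39.7% of the 310 outside the mitochondrial genome that averaged 100 FPKM or more.

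The log2 fold changes ran from -0.53 to 0.80 with a median of 0.16, against 0.01 over all tested transcripts, with 6 above 0 and 4 below. MT-CO2 had the highest value, 0.80 (SE 0.51, 95% interval -0.52 to 2.13, limma adjusted p = 0.879). MT-ND5 had the lowest, -0.53 (SE 0.50, 95% interval -1.84 to 0.77, limma adjusted p = 0.879). In between, MT-ND3 stood at 0.67, MT-ND1 at 0.33, MT-ATP6 at 0.31, MT-ND2 at 0.17, MT-CO3 at 0.15, MT-ND4 at -0.02, MT-CYB at -0.30 and MT-CO1 at -0.39. The intervals were 2.08 to 3.10 wide, every interval held a 2-fold difference in at least 1 direction, and a p that misses the threshold does not show that the precipitates were alike. The gap between the IgG replicates was larger than the fold change in 10 of 10 members.

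**Figure D3:**
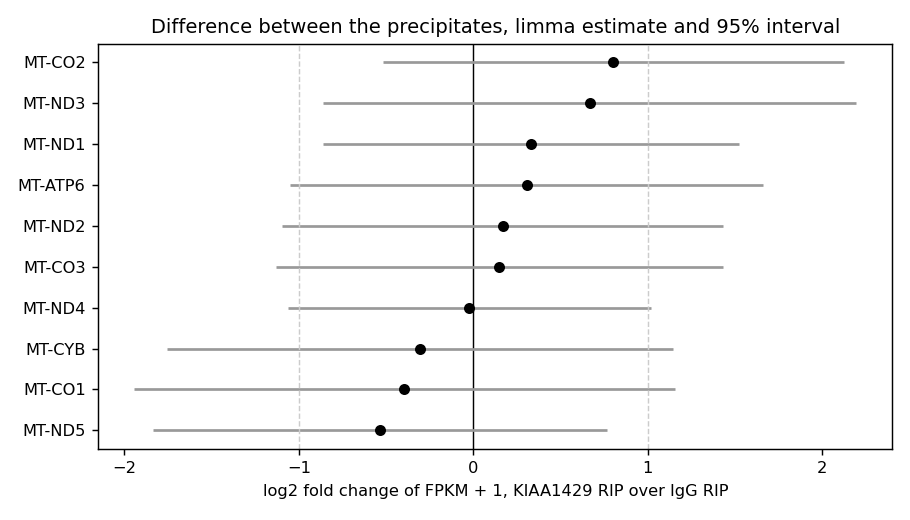
Log2 fold change of FPKM + 1, KIAA1429 RIP over IgG RIP, for the 10 mRNAs with 95% intervals from limma. All 10 intervals cross 0, from MT-ND5 at -0.53 to MT-CO2 at 0.80.

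The balance among the mRNAs was steadier between replicates than their amount. Each member was expressed as a percent of the summed FPKM of the 13 mitochondrial mRNAs of its library. MT-CO2 made up 6.56% and 6.62% of the sum with IgG, against 10.6% and 11.3% with the KIAA1429 antibody, a 1.66-fold higher mean share. MT-ND3 made up 3.80% and 4.90% with IgG, against 6.30% and 6.77% with the KIAA1429 antibody, 1.5-fold higher. Both KIAA1429 libraries lay above both IgG libraries in these genes. MT-ND5 made up 5.19% and 5.43% with IgG, against 3.43% and 3.55% with the KIAA1429 antibody, with a ratio of 0.657. MT-CO1 made up 16.3% and 19.9% against 12.3% and 13.9%, with a ratio of 0.722, and MT-CYB 8.91% and 10.5% against 7.36% and 7.56%, with a ratio of 0.768. Both KIAA1429 libraries lay below both IgG libraries in these 3 genes.

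MT-ND1, MT-ATP6 and MT-CO3 were also apart, with higher shares in KIAA1429 RIP and ratios of 1.20, 1.18 and 1.06, whereas MT-ND2 and MT-ND4 overlapped. In all, 8 of 10 shares did not overlap between the groups, 5 higher and 3 lower in KIAA1429 RIP. Scaled in the same way, 22.6% of all tested transcripts did not overlap, and 28.1% of the 310 transcripts outside the mitochondrial genome that averaged 100 FPKM or more. This scaling divides out the replicate gap that the members share and carries it into other transcripts, so the comparison is not like for like. As deposited, 29.7% and 39.7% of these sets did not overlap. Taken over the 10 members alone, 7 of 10 shares did not overlap, since MT-CO3 then did. Shares of a sum depend on each other. With 2 libraries against 2, the exact permutation test cannot go below p = 0.333. The limma test after this scaling, an alternative chosen after seeing the data, called no member, with a lowest unadjusted p of 0.0674.

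**Figure D4:**
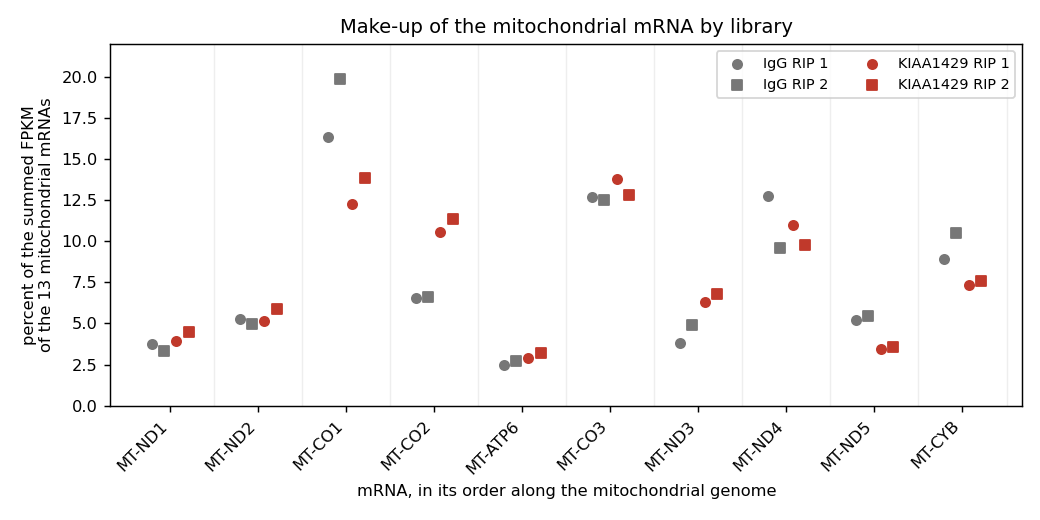
Share of each of the 10 mRNAs in the summed FPKM of the 13 mitochondrial mRNAs, in percent, for each library. Replicates lie close together in MT-CO2 and MT-ND5, with MT-CO2 at 10.6% and 11.3% in KIAA1429 RIP against 6.56% and 6.62% in IgG RIP.

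Ratios of pairs of mRNAs within a library are free of the scaling to depth, but they keep the scaling to length. The FPKM of MT-CO2 relative to that of MT-ND5 was 1.26 and 1.22 with IgG, against 3.08 and 3.19 with the KIAA1429 antibody, 2.53-fold higher. Relative to MT-CO1, its partner in the same enzyme, MT-CO2 stood at 0.401 and 0.333 with IgG, against 0.861 and 0.818 with the KIAA1429 antibody, 2.29-fold higher. These pairs were chosen after their values were seen. In both, the groups were separated by more than the replicates differed, at an exact permutation p of 0.333, the smallest this design allows.

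By complex, the balance was flatter in complexes I and IV, where several members were summed. Complexes III and V hold 1 member each. The 5 complex I members made up 39.6% and 35.0% of the members' sum with IgG, against 38.9% and 38.4% with the KIAA1429 antibody. The 3 complex IV members made up 45.8% and 48.5% against 47.8% and 48.0%, so MT-CO2 on the higher side and MT-CO1 on the lower side met in a sum that overlapped. MT-CYB, for complex III, was lower, at 11.5% and 13.1% against 9.59% and 9.55%. MT-ATP6, for complex V, was higher, at 3.20% and 3.38% against 3.80% and 4.06%.

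Some mitochondrial mRNAs overlap, and reads in shared bases could be assigned to either gene. MT-ND4L and MT-ND4 share the 7 bases in capitals here, which hold the start of MT-ND4 and the end of MT-ND4L, and lie on the same RNA.
MT-ND4L and MT-ND4, chrM:10751-10775: cctactccaATGCTAAaactaatcg
The FPKM of MT-ND4L relative to that of MT-ND4 was 0.890 and 0.989 with IgG, against 0.946 and 0.950 with the KIAA1429 antibody, so this pair overlapped. MT-ATP8 and MT-ATP6, which also lie on a common RNA and share 46 bases, gave 2.70 and 2.59 with IgG, against 3.11 and 3.0 with the KIAA1429 antibody, 1.15-fold higher and apart. How shared bases and near-identical nuclear copies of mitochondrial DNA were treated in the FPKM is not given in the sources used here. Of such copies, MTRNR2L8 and MTRNR2L12, which resemble a mitochondrial rRNA, were listed, at 0 to 2.98 FPKM and 11.03 to 27.5 FPKM. No rRNA or tRNA of the mitochondrial genome was listed, so none could be analysed here.

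The fold changes of the members ran with transcript length. The 6 members under 1100 bases, a limit set after the values were seen, had log2 fold changes of 0.15 to 0.80 with a median of 0.32, and 6 of 6 were above 0. The 4 longer members had -0.53 to -0.02 with a median of -0.35, and 0 of 4 were above 0. Spearman's correlation between log2 fold change and length was -0.88 over the 10 members, and -0.72 to -0.98 in the 4 pairings of a KIAA1429 library with an IgG library. Between the replicates of a group it was -0.18 and -0.12. The 10 points come from the same 4 libraries and the same precursor RNAs, and genes are not independent replicates.

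Length did not order every gene. Over all 13 mitochondrial mRNAs the Spearman correlation was -0.60, with MT-ND4L at -0.01 and MT-ND6 at -0.33 although they are short. MT-ND6, a complex I subunit, is encoded on the minus strand, and whether the libraries kept strand is not given in the sources used here. MT-CO2, of 684 bases, and MT-ATP6, of 681 bases, are nearly equal in length and had log2 fold changes of 0.80 and 0.31. Over the members, the Spearman correlation of the fold change with GC content was -0.20 and with GGAC per kb -0.18.

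Fold change also ran with length, less closely, in abundant RNA from the nucleus. Over the 310 transcripts outside the mitochondrial genome that averaged 100 FPKM or more, the Spearman correlation was -0.46, and -0.60 to -0.16 in the 4 pairings. Between their replicates it was -0.22 in IgG RIP and 0.15 in KIAA1429 RIP, so the weakest pairing lay below the IgG replicates in size. By contrast, over all 22660 other tested transcripts with a length the correlation was -0.05. Among the 310, the median log2 fold change was 0.57 in the 36 transcripts of up to 500 bases and 0.57 in the 99 of 500 to 1000 bases. It was 0.40 in the 46 of 1000 to 1500 bases, -0.04 in the 31 of 1500 to 2000 bases, 0.08 in the 66 of 2000 to 4000 bases and -0.09 in the 32 above 4000 bases. Length thus moved with the result in both sets, and its part in the balance among the mitochondrial mRNAs was not tested.

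**Figure D5:**
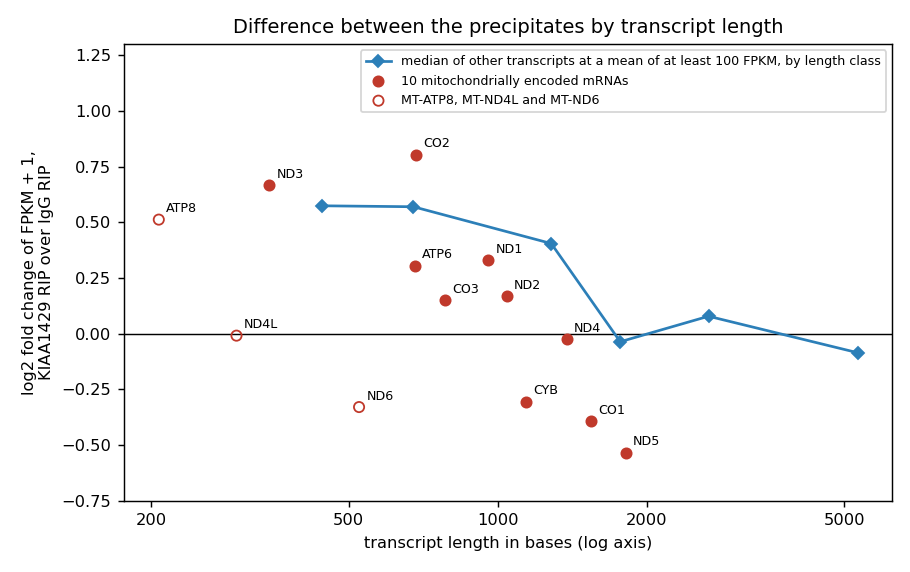
Log2 fold change of FPKM + 1, KIAA1429 RIP over IgG RIP, against transcript length in bases (log axis), with members as filled points, MT-ATP8, MT-ND4L and MT-ND6 as open points, and medians of 310 abundant other transcripts by length class as diamonds. The 6 members under 1100 bases lie above 0 and the 4 longer ones below, and the medians fall from 0.57 to near 0.

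The members' partners made from nuclear genes mostly had fold changes above 0. Nuclear genes listed as subunits of complexes I, III, IV and V made up 0.995% and 1.13% of the FPKM of the IgG RIP libraries. They made up 1.47% and 1.41% of the KIAA1429 RIP libraries, so the groups did not overlap. The list was drawn by gene name, and whether each gene encodes a subunit was not checked. As gene totals, which all passed the filter, 68 of 74 had a log2 fold change above 0, against 51.4% of 11361 gene totals tested, and their median was 0.57 against 0.02 over all. None was called by limma, and 22 of 74 passed an unadjusted p under 0.05, all higher, against 3.17% of gene totals that did so and 4.59% that passed in either direction. The background of all gene totals was not matched for length or level. Among transcripts outside the mitochondrial genome averaging 100 FPKM or more, 83.3% of those up to 500 bases were above 0. Of those of 500 to 1000 bases, 90.9% were, and both medians were 0.57. Over all tested transcripts of these lengths outside that genome, 49.7% and 52.7% were above 0. Whether the subunits differ from other RNAs of like length and level was not tested. Single transcripts of the subunits went both ways: of 188 tested, 134 were above 0 and 54 below. At an unadjusted limma p under 0.05 and a log2 fold change beyond 1 in size, 19 of these were higher and 6 lower. Over all 23375 transcripts tested, 675 were higher and 542 lower. Replicates of these genes differed by a median log2 of 0.11 in IgG RIP and -0.03 in KIAA1429 RIP, against 1.12 and 0.55 in the members. The difference between the members and these genes was not tested, and its direction rested on 1 library: over transcripts the medians were 0.16 in the members and 0.40 in the subunits, but 0.67 and 0.53 without IgG replicate 2.

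The most abundant of these partners gave mixed values. ATP5B, the catalytic beta subunit of ATP synthase, stood at 268 and 235 FPKM with IgG and at 309 and 261 FPKM with the KIAA1429 antibody, with a log2 fold change of 0.18 that did not pass the test. ATP5G2, a subunit of its rotating membrane ring, stood at 135 and 338 FPKM, then 255 and 243 FPKM in the same order, with 0.22. COX8A, a small subunit of complex IV, stood at 114 and 154 FPKM with IgG and at 239 and 185 FPKM with the KIAA1429 antibody, and its log2 fold change of 0.66 (SE 0.32) did not pass either. In COX8A the groups did not overlap, and in ATP5B and ATP5G2 they did, with a wide gap between the IgG libraries in ATP5G2.

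Genes that transcribe mitochondrial DNA or handle its RNA were spread to both sides. Of 37 gene totals tested, 21 had a log2 fold change above 0 and 16 below, with a median of 0.07, and limma called none. At an unadjusted p under 0.05, 1 was higher and 2 were lower. LRPPRC, which with SLIRP stabilizes mitochondrial mRNAs, stood at 53.2 and 42.6 FPKM with IgG and at 53.3 and 51.4 FPKM with the KIAA1429 antibody, a log2 fold change of 0.13. SLIRP stood at 28.9 and 53.9 FPKM against 66.8 and 51.3 FPKM, and SSBP1, a protein that binds mitochondrial single-stranded DNA, at 60.9 and 32.8 FPKM against 94.4 and 65.5 FPKM. The log2 fold change was 0.56 in SLIRP, whose groups overlapped, and 0.80 in SSBP1, whose groups did not, and neither passed the test.

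Among 423 gene totals outside the mitochondrial genome with a mean of at least 100 FPKM, the pattern over the 4 libraries closest to that of the members was sought. The measure was the mean absolute difference from the members' mean of log2 values centred on each gene. PHB2, a prohibitin of the inner mitochondrial membrane, was closest at 0.066 and stood at 83.2 and 163 FPKM with IgG and at 113 and 164 FPKM with the KIAA1429 antibody. COX7A2L, which was also in the list of nuclear-encoded subunits, CD74, HSPB1 and RPS3 followed at 0.067 to 0.0963. The members themselves lay 0.0581 to 0.343 from their mean, and 129 of the 423 lay within the largest of these distances.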

How the data were processed

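RNA from KIAA1429 and IgG immunoprecipitates of HCCLM3 cells was poly(A) selected, primed at random and sequenced. The authors deposited FPKM per transcript, 1 list per library, on GRCh37 (hg19). The study's methods name HISAT2 as aligner and the submitters' processing notes Bowtie2 2.1.0. The FPKM estimator, the annotation release and the library strand are not given in the sources used here. The members and lists were chosen with earlier results of these data known. The named genes were the 10 members, the other listed genes and nuclear copies of the mitochondrial genome, the 3 most abundant genes of each nuclear list, the 5 genes most like the members, and KIAA1429. The pairs were chosen after their values were seen. log2(FPKM + 1) was tested with limma 3.58.1 in R 4.3.3 (two-sided, trended eBayes, no block, p adjusted by Benjamini-Hochberg across the 23375 transcripts averaging 1 FPKM or more). On data simulated at the spread of these libraries, with 200 randomly drawn transcripts raised by 2 on the log2 scale, this fit recovered 0. With 200 gene totals raised by 4, it recovered 188, with 12 false calls. The lack of a call thus says little about differences of the smaller size. Noise was simulated independently for each feature, and recovery at the high FPKM of the members was not examined separately. Shares, ratios and correlations were computed in Python 3.11.15 with pandas 2.3.3 and scipy 1.17.1. Lengths matched 33938 of 34975 transcripts (97.0%), and sequences were read from the GRCh37 genome. Alternatives covered pseudocounts, filters, scaling, quantile normalization, gene totals, a replicate block and leaving out each library. Depth is unknown.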

Additional observations from a re-analysis of the deposited data

How the results depend on the processing

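No member was called under any alternative, which says little about stability, since the fits of transcripts without a block called no transcript at all. Fold changes of members changed sign under quantile normalization in MT-ATP6 (-0.21), MT-ND1 (-0.089) and MT-ND2 (-0.10), after scaling to the non-mitochondrial FPKM in MT-CO3 (-0.012), which moved the median of all transcripts to -0.12, and after median scaling in MT-ND4 (0.0076). Leaving out each library in turn gave log2 fold changes of -0.30 to 0.91 in MT-ATP6, -1.08 to 0.29 in MT-CO1, 0.26 to 1.35 in MT-CO2, -0.38 to 0.68 in MT-CO3, -0.97 to 0.36 in MT-CYB, -0.12 to 0.78 in MT-ND1, -0.33 to 0.67 in MT-ND2, -0.056 to 1.39 in MT-ND3, -0.36 to 0.31 in MT-ND4 and -1.11 to 0.038 in MT-ND5. Without IgG replicate 1, 1 of 10 members was above 0, and without IgG replicate 2, 10 of 10 were; a lone library was then assumed to vary like the other group. The log2 ratio of the sums ran from -0.49 to 0.64 on leaving out a library, members higher in every pairing from 0 to 8, members lower from 0 to 7, and members that kept their rank from 6 to 10. Quantile normalization gave 2 members higher and 1 lower in every pairing. The median of the nuclear-encoded subunits, 0.40 over transcripts, was 0.24 after scaling to the non-mitochondrial FPKM, 0.57 over gene totals and 0.35 to 0.53 on leaving out a library. The median of the RNA handling list, 0.11, was 0.19 with a pseudocount of 0.1, 0.19 with 0.01, -0.068 after scaling to the non-mitochondrial FPKM and 0.011 to 0.40 on leaving out a library. The cause of these shifts was not tested.

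Replicate numbers are shared between groups, but nothing says that they pair the samples, and the deviations of same-numbered libraries correlated at 0.03 over transcripts and 0.187 over gene totals. With a replicate block limma called 0 members, with a lowest adjusted p of 0.884. On gene totals with the block, chosen after seeing the data, 12 gene totals were called higher and 1 lower, none a member. With the block and scaling to the mitochondrial sum, also chosen after seeing the data, MT-CO2 reached a limma adjusted p of 0.00821 at a log2 fold change of 0.73, short of the fold threshold, and 140 transcripts were called higher and 128 lower. Unknown depth and 2 libraries per group limit all of these values.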
